A study of Mus with 4 samples.

Results

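The major histocompatibility complex (MHC) class II genes described here are H2-Aa (ENSMUSG00000036594), H2-Ab1 (ENSMUSG00000073421), H2-Eb1 (ENSMUSG00000060586), H2-DMa (ENSMUSG00000037649), H2-DMb1 (ENSMUSG00000079547), Cd74 (ENSMUSG00000024610) and Ciita (ENSMUSG00000022504). They were taken by these Ensembl identifiers from a deposited gene count table, and they are 7 of its 54532 genes. The table holds RNA-seq read counts of liver sinusoidal endothelial cells (LSECs), the perforated lining of the blood channels between hepatocyte plates, from mice given carbon tetrachloride (CCl4), a toxin that injures hepatocytes. All 4 libraries carried this treatment, and no untreated library was analysed here. The control group (CTL) had 2 libraries, called CTL1 and CTL2 in the table. The group named P1KO, with the genotype label Pofut1KO, had 2 libraries, called KO1 and KO3. The series title places the deletion in the endothelium. The sources used here do not give the promoter of the recombinase, the strain, age and sex of the mice, the number of CCl4 doses, or whether a library came from 1 animal or a pool. POFUT1 is a fucosyltransferase of the endoplasmic reticulum that modifies Notch receptors.

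MHC class II molecules present peptides from the endosomal pathway to CD4+ T cells. An alpha and a beta chain pair in the endoplasmic reticulum with the invariant chain, which guides the complex to endosomes, and the DM heterodimer then removes the remaining invariant chain fragment so that another peptide can bind. CIITA is the transactivator that professional antigen-presenting cells and interferon gamma-treated cells use to transcribe these genes. In the liver, class II is carried by Kupffer cells, dendritic cells and B cells, and at lower levels by LSECs, which are known for presenting antigen in a tolerogenic way.

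The RefSeq table of assembly GRCm38.p6 lists 5 of the 7 genes within 197 kb of chromosome 17, the class II region of the mouse MHC. H2-DMa lies at chr17:34119693-34139101, H2-DMb1 at chr17:34153191-34160229, H2-Ab1 at chr17:34263227-34269418, H2-Aa at chr17:34282744-34287823 and H2-Eb1 at chr17:34305867-34316674. H2-DMb2, a near-identical copy of H2-DMb1, sits between H2-DMa and H2-DMb1, and how reads matching both copies were counted is not stated, so the values of H2-DMb1 are uncertain. The table lists Ciita at chr16:10480014-10531064, and Cd74 is on chromosome 18. In the same table the span of H2-DMa overlaps Brd2 and that of Ciita overlaps Dexi, and without a stated strand setting reads of overlapping genes cannot be told apart. Each position is the whole gene span, introns and untranslated regions included.

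The libraries held between 17464769 and 17918834 counts, so depth was nearly equal. The labels contradict each other on the tissue, since the extraction protocol names heart ventricles while the tissue and cell type labels name liver and LSECs. The other identifiers in the table could not be matched to gene symbols, so Pofut1, the markers of LSECs and the markers of macrophages, dendritic cells and B cells were not read. In bulk RNA, fewer cells of a class II-bearing type and less class II RNA per cell cannot be told apart. The spread between libraries was unequal, with a biological coefficient of variation over all tested genes of 3.23% in CTL and 12.1% in P1KO. Separate animals are named by no label, and the p-values cover only the variation among these 4 libraries, possibly technical variation.

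Class II transcripts were lower in the knockout libraries for most of these genes. The classical chains H2-Aa, H2-Ab1 and H2-Eb1, the invariant chain gene Cd74 and the DM chain H2-DMb1 fell, whereas H2-DMa and Ciita did not pass the test. H2-Ab1 had the lowest ratio, at 0.381 times the CTL level, and Cd74 the mildest of the called falls, at 0.733 times. All 7 genes passed the filter on low counts, 5 were called lower and 0 higher (quasi-likelihood test of edgeR, p adjusted by Benjamini-Hochberg over 15510 genes, below 0.05). In the same fit 19.5% of all tested genes were called, 9.84% as lower and 9.68% as higher. The median log2 fold change was -0.56 over the 7 genes and -0.01 over all tested genes. CIITA is known to act on several of these genes and 5 of them share a locus, so they are not independent observations of the genotype.

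**Figure D1:**
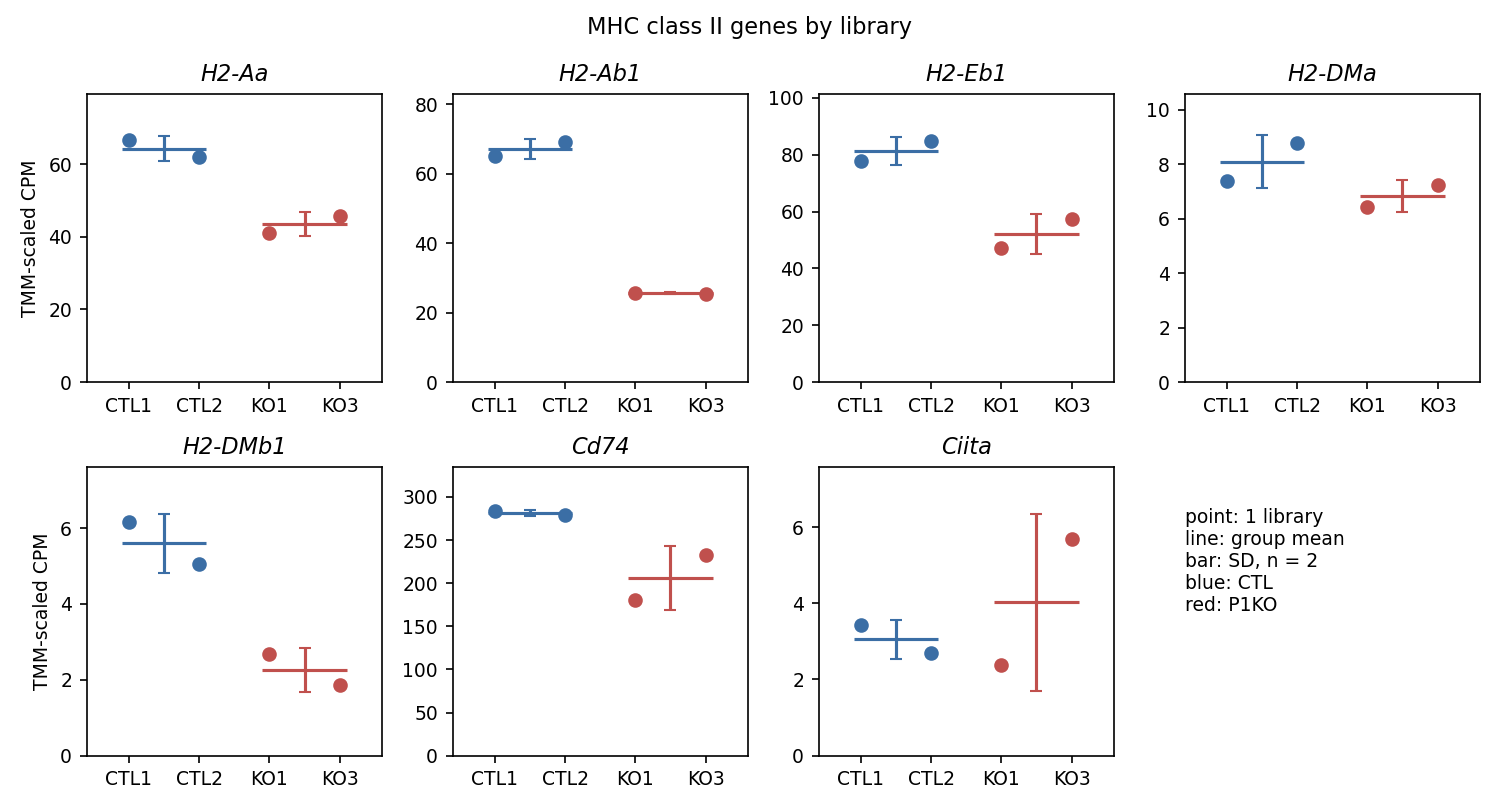
Level of each class II gene in TMM-scaled CPM (linear axes from 0) in each library, with the group mean as a line and the SD (n = 2) as a bar. Both P1KO libraries lie below both CTL libraries for 6 of the 7 genes (32.1% of all tested genes), narrowly for H2-DMa, and the groups overlap for Ciita.

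H2-Ab1 encodes the beta chain of the I-A molecule. Its reads numbered 1141 in CTL1 and 1235 in CTL2, against 454 in KO1 and 451 in KO3. In CPM, counts per 1000000 of the library total as scaled by the TMM factors of edgeR, the level was 65.0 and 69.1 in the CTL libraries and 25.8 and 25.3 in the P1KO libraries. The groups lay far apart, since the lower CTL library was 2.52 times the higher P1KO library, and each pair was tight. The means were 67.1 ± 2.94 CPM in CTL and 25.6 ± 0.325 CPM in P1KO (SD, n = 2 each). The log2 fold change was -1.39 ± 0.07 (SE), with a 95% interval of -1.56 to -1.22 and an edgeR adjusted p of 7.22e-05. By p-value the gene ranked 29 among the 15510 tested genes. The KO3 to KO1 ratio was 0.982, with a 95% interval of 0.860 to 1.12 from counting error alone (exact binomial), so the knockout pair did not differ beyond its reads.

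H2-Aa encodes the alpha chain that pairs with the product of H2-Ab1. CTL1 held 1171 reads and CTL2 1105, whereas KO1 held 724 and KO3 816. Its level was 66.7 and 61.9 CPM in the controls and 41.1 and 45.8 CPM in the knockouts. Again the groups did not overlap, and the lower CTL library was 1.35 times the higher P1KO library. The mean fell from 64.3 ± 3.41 to 43.5 ± 3.33 CPM (SD, n = 2 each), and the log2 fold change was -0.56 ± 0.08 (SE, 95% interval -0.75 to -0.38, edgeR adjusted p of 0.00349).

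H2-Eb1 encodes the beta chain of the I-E molecule, whose alpha chain gene H2-Ea is disrupted in some mouse strains. CTL1 had 1367 reads of it and CTL2 1514, and the knockouts KO1 and KO3 had 831 and 1018. The level was 77.9 and 84.8 CPM in the controls and 47.2 and 57.2 CPM in the knockouts, with no overlap. The mean fell from 81.3 ± 4.89 to 52.2 ± 7.05 CPM (SD, n = 2 each), and the log2 fold change was -0.64 ± 0.10 (SE, 95% interval -0.87 to -0.41, edgeR adjusted p of 0.00463). KO3 was 1.21 times KO1, with a counting interval of 1.10 to 1.33 (exact binomial), so the knockout libraries differed by more than read sampling. So did the controls, with CTL2 at 1.09 times CTL1 and a counting interval of 1.01 to 1.17. Together the classical chains summed to 213 ± 4.42 CPM in CTL and 121 ± 10.1 CPM in P1KO (SD, n = 2 each).

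Cd74 encodes the invariant chain, which is also a receptor subunit for the cytokine MIF. It had the most reads of the 7 genes, with 4989 and 4982 in the controls CTL1 and CTL2 and 3167 and 4142 in the knockouts KO1 and KO3. Its level was 284 and 279 CPM in the controls, which were nearly equal, and 180 and 233 CPM in the knockouts, which were not. The KO3 to KO1 ratio was 1.29, with a counting interval of 1.23 to 1.35 (95%, exact binomial). The mean fell from 282 ± 3.68 to 206 ± 37.3 CPM (SD, n = 2 each). The log2 fold change was -0.45 ± 0.11 (SE, 95% interval -0.70 to -0.19, edgeR adjusted p of 0.0273). It came to -0.65 without KO3 and -0.27 without KO1, so the size of the fall depended on which knockout library was used.

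H2-DMb1 encodes the beta chain of the DM heterodimer. Its reads were few, at 108 for CTL1, 90 for CTL2, 47 for KO1 and 33 for KO3. The level was 6.15 and 5.04 CPM in the controls and 2.67 and 1.85 CPM in the knockouts, so both knockout libraries were below both controls. The mean fell from 5.59 ± 0.786 to 2.26 ± 0.577 CPM (SD, n = 2 each), and the log2 fold change was -1.30 ± 0.26 (SE, 95% interval -1.92 to -0.69, edgeR adjusted p of 0.0139).

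H2-DMa encodes the alpha chain of the same heterodimer and did not pass the test. Read counts were 130 for CTL1, 157 for CTL2, 113 for KO1 and 129 for KO3. The level was 7.40 and 8.79 CPM in the controls and 6.42 and 7.25 CPM in the knockouts. CTL1 and KO3 almost met, with CTL1 at 1.02 times KO3. The log2 fold change was -0.24 ± 0.17 (SE), with a 95% interval of -0.65 to 0.16 and an edgeR adjusted p of 0.367. On the linear scale this interval runs from 0.638 to 1.12 times the CTL level, and so includes a fall the size of that of H2-Aa.

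Ciita, which encodes the transactivator, was the gene whose groups overlapped. Read counts were 60 for CTL1, 48 for CTL2, 42 for KO1 and 101 for KO3, which is 3.42, 2.69, 2.39 and 5.67 CPM. KO1 was the lowest of the 4 libraries and KO3 the highest. The KO3 to KO1 ratio was 2.38 with a counting interval of 1.64 to 3.49 (95%, exact binomial). The absolute log2 difference between KO1 and KO3 was larger than that of 96.9% of all tested genes, where low counts also widen the gaps. The means were 3.05 ± 0.516 CPM in CTL and 4.03 ± 2.32 CPM in P1KO (SD, n = 2 each). The log2 fold change was 0.40 ± 0.40 (SE, 95% interval -0.53 to 1.34, edgeR adjusted p of 0.530). It was 0.89 without KO1 and -0.35 without KO3, so the direction changed with the knockout library. Each of these fits held only 1 P1KO library and so had no measure of knockout spread. In KO3, Ciita was thus highest. H2-Aa, H2-Eb1, H2-DMa and Cd74 were also higher in KO3, at 1.11, 1.21, 1.13 and 1.29 times KO1. For H2-DMa this difference was within counting error. H2-Ab1 and H2-DMb1 were instead at their lowest of the 4 libraries in KO3, though for both KO3 was within counting error of KO1. The table counts whole genes, and the alternative promoters of Ciita cannot be told apart in it.

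**Figure D2:**
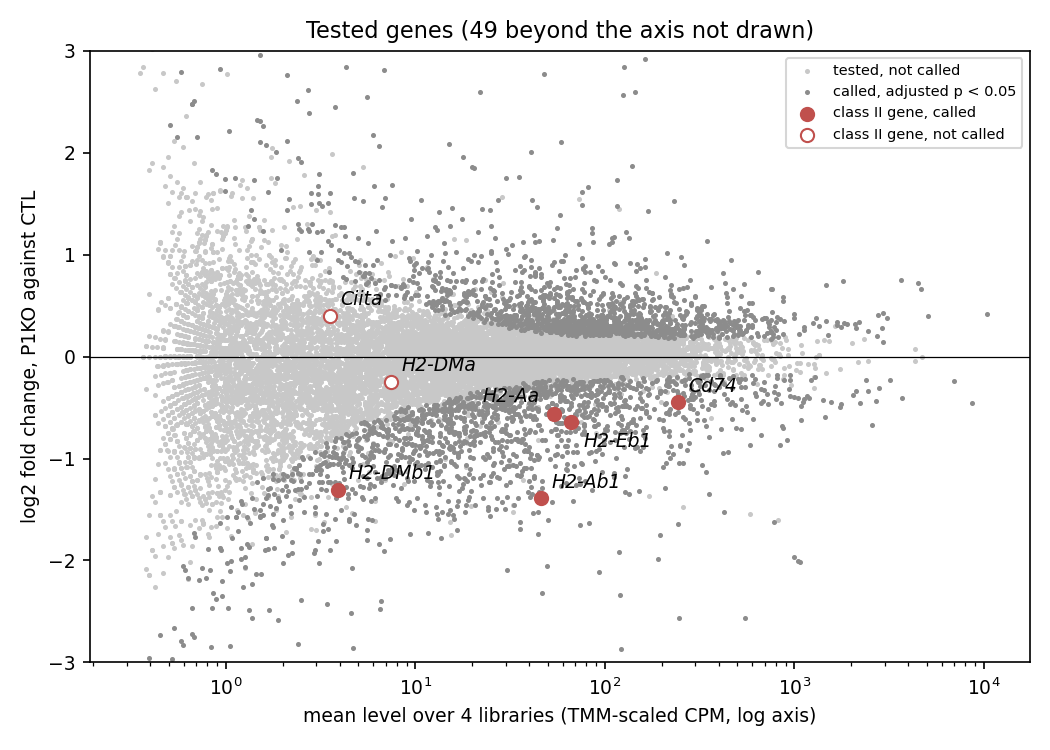
Log2 fold change of P1KO against CTL (vertical) against mean level over the 4 libraries in TMM-scaled CPM (horizontal, log axis) for the tested genes, except 49 beyond 3 on the log2 scale in either direction, which are not drawn. The 5 called class II genes (filled) lie below 0 from about the level of H2-DMb1 to that of Cd74, and H2-DMa and Ciita (open) lie among the uncalled genes.

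Among all tested genes ranked from the deepest fall to the largest rise, H2-Ab1 stood at the 1.93 percentile and H2-DMb1 at the 2.44 percentile. H2-Eb1 was at 10.8, H2-Aa at 12.6, Cd74 at 16.2, H2-DMa at 26.2 and Ciita at 89.4. The called class II genes span a wide range of levels, as the plot of fold change against level shows. Cd74 was more abundant in CPM than 95.3% of tested genes, whereas H2-DMb1 and Ciita were at the 25.9 and 24.7 percentiles. Both P1KO libraries were below both CTL libraries for 6 of the 7 genes, against 32.1% of all tested genes.

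The fall of the beta chain gene H2-Ab1 was deeper than that of its alpha chain partner H2-Aa. The 95% intervals of the log2 fold changes of H2-Ab1 (-1.56 to -1.22) and H2-Aa (-0.75 to -0.38) did not overlap. This comparison and the other ratios were chosen after the values were seen. The ratio of H2-Aa to H2-Ab1 reads within a library does not depend on how libraries are scaled. It also says nothing about which gene had more RNA, since reads depend on transcript length. The ratio was 1.03 in CTL1 and 0.895 in CTL2, against 1.59 in KO1 and 1.81 in KO3, so the knockout ratio was 1.77 times that of the controls. The counting intervals (95%, exact binomial) reached at most 1.11 in the controls and started at 1.42 in the knockouts.

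Reads of the I-E beta chain and of the invariant chain were likewise higher relative to H2-Ab1 in both knockouts. H2-Eb1 reads were 1.20 and 1.23 times those of H2-Ab1 in the controls, and 1.83 and 2.26 times in KO1 and KO3. Cd74 reads were 4.37 and 4.03 times those of H2-Ab1 in the controls, and 6.98 and 9.18 times in KO1 and KO3. These ratios share H2-Ab1, the gene with the deepest fall here. They restate that fall and are not separate observations. For the DM chains, H2-DMa reads were 1.20 and 1.74 times those of H2-DMb1 in the controls and 2.40 and 3.91 times in the knockouts. Here the counting intervals of CTL2 (1.34 to 2.29) and KO1 (1.70 to 3.45) overlapped. Reads shared between H2-DMb1 and H2-DMb2, or between H2-DMa and Brd2, could also alter this ratio, which was not tested. The 4 pairs were chosen after the values were seen. For each of the 4 ratios both knockout libraries were above both controls, but how often other gene pairs separate so was not computed. A two-sided exact permutation test over 2 against 2 libraries gave p = 0.333 for each ratio (0.333 after adjustment over the 4). This is the smallest value the design allows.

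**Figure D3:**
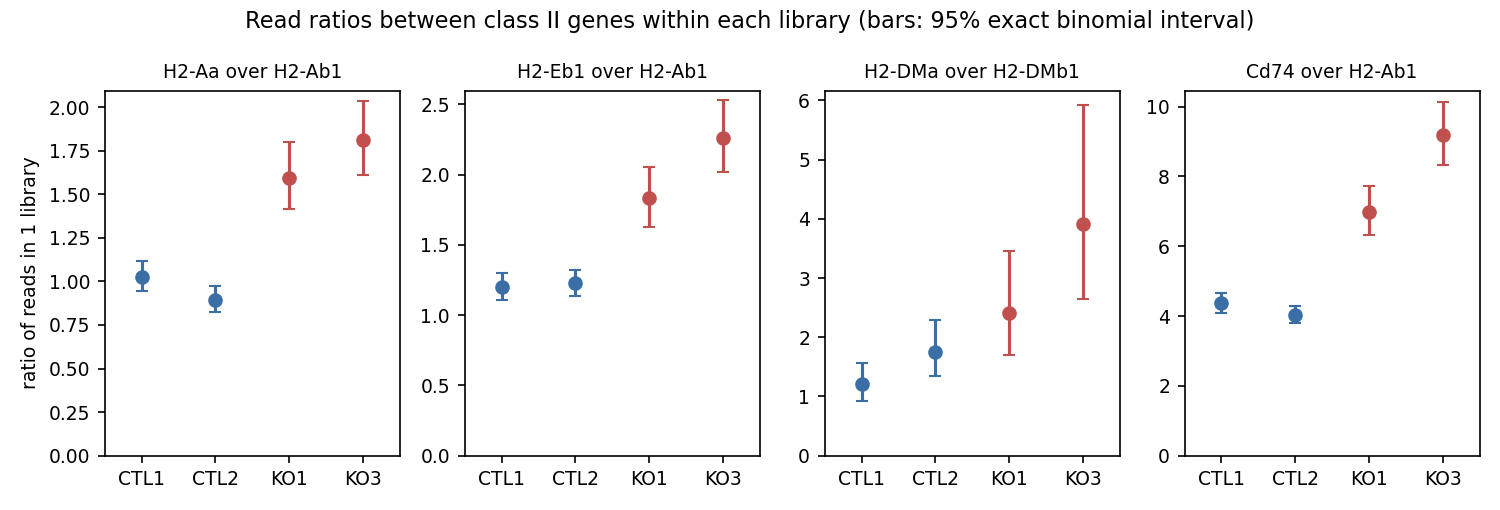
Ratio of the reads of 1 class II gene to those of another within each library (vertical, linear from 0), with 95% exact binomial intervals that cover counting error only. Both P1KO libraries lie above both CTL libraries in each panel, for pairs chosen after the values were seen. For H2-Aa over H2-Ab1 the values are 1.03 and 0.895 in CTL and 1.59 and 1.81 in P1KO.

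Between the knockout libraries, 5 of the 7 genes were higher in KO3 than in KO1, and H2-Ab1 and H2-DMb1 were lower. Over all tested genes 48.0% were higher in KO3. The median absolute log2 difference between KO1 and KO3 was 0.28 over the 7 genes and 0.15 over all tested genes. Between CTL1 and CTL2 it was 0.12 and 0.10. For H2-Aa, H2-Eb1, H2-DMa and Cd74, KO3 was the knockout library nearer to the controls, without overlapping them.

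The call of H2-Ab1 did not rest on a single library. The other 4 genes were called only in fits that held CTL1 and CTL2 as separate libraries. Without CTL1, H2-Ab1 had an edgeR adjusted p of 0.0251 and was the only one of the 7 called, when 0.832% of all tested genes were. Without CTL2 its edgeR adjusted p was 0.0314, again the only one of the 7, with 0.774% of all tested genes called. In those 2 fits the edgeR adjusted p of H2-Aa was 0.120 and 0.0912, that of H2-Eb1 0.101 and 0.141, that of H2-DMb1 0.201 and 0.141, and that of Cd74 0.266 and 0.246. Their log2 fold changes stayed negative, between -0.44 for Cd74 and -1.45 for H2-DMb1. With only 1 knockout library the spread came from the close CTL pair, and 34.8% of all genes were called without KO1 and 33.6% without KO3. In both of these fits the 5 genes were called lower, and Ciita was called higher without KO1. Tested against a minimum change of 1.5-fold, H2-Ab1 was called (edgeR adjusted p of 0.000544), as 1.74% of all tested genes were, and none of the other 6 was. With both CTL libraries summed into 1 it was again the only one of the 7 called (edgeR adjusted p of 0.0260), with 0.98% of all tested genes. Without a filter on low counts, 6.24% of all genes were called, among them 4 of the 7, and Cd74 was not (edgeR adjusted p of 0.105). Other tools and scalings called the same 5 genes, against 14.5% of all genes in DESeq2, 20.1% in limma-voom and 19% in limma-voom with a spread per group. The share was 19.7% with DESeq2 size factors, 19.2% with library totals and 25.9% at a minimum of 5 CPM. H2-DMb1 passed that minimum through the CTL libraries alone. Its level was 6.15 and 5.04 CPM in CTL and 2.67 and 1.85 CPM in P1KO, so that call is not separate support.

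**Figure D4:**
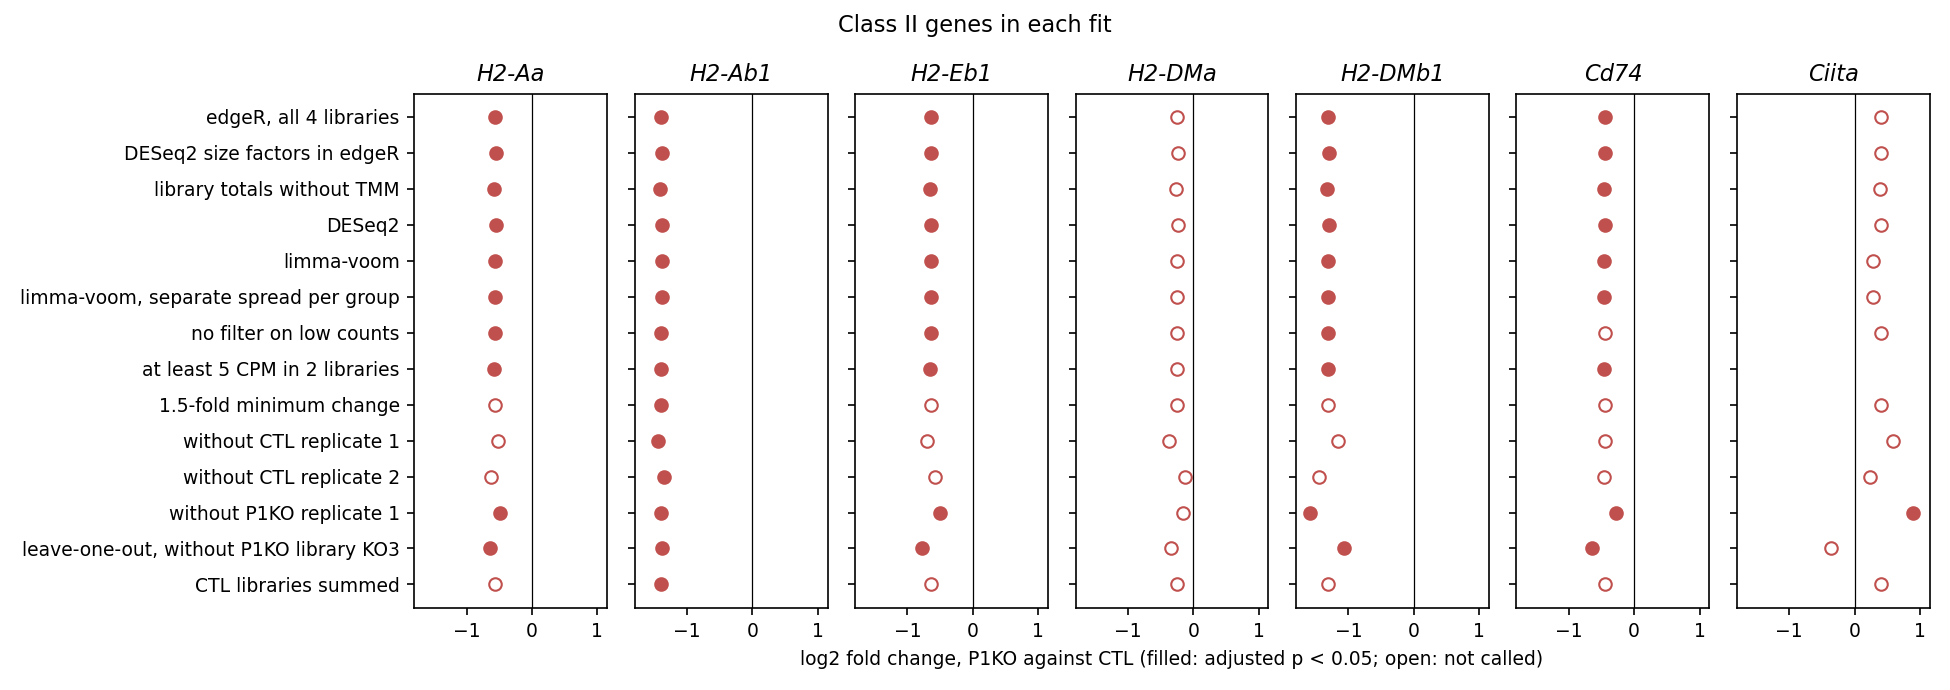
Log2 fold change of P1KO against CTL (horizontal) of each class II gene in the edgeR fit to all 4 libraries and in each other fit (rows), filled where the adjusted p was below 0.05. H2-Ab1 is filled in every fit, H2-DMa in none, and Ciita lies on both sides of 0 and was not tested at a minimum of 5 CPM.

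Other genes had nearly the same profile over the 4 libraries as the mean of the 7 class II genes. That mean includes the uncalled H2-DMa and Ciita, and single class II genes can differ from it. Profiles were compared by the Euclidean distance between log2 CPM values centred on each gene's mean, over 9474 other genes at 10 CPM or more. The nearest was ENSMUSG00000012017, at a distance of 0.0339 against a median of 0.688, with 44.8, 43.5, 26.5 and 30.4 CPM in CTL1, CTL2, KO1 and KO3. The next was ENSMUSG00000066892, at 0.0391, with 19.6, 19.1, 11.4 and 13.3 CPM in the same order. With 4 libraries in 2 groups, many genes that differ between the groups come close, and by Pearson correlation in place of distance 0 of the 5 nearest genes were the same.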

How the data were processed

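The authors deposited 1 table of raw read counts per Ensembl gene for all 4 libraries, whole numbers without normalization, and every row names a gene. HISAT2 2.0.5, featureCounts 1.5.0-p3, fastp and CASAVA and the build mm10 are named, per the submitters' processing notes. The sources used here give no annotation release, strand setting or treatment of shared reads. No sample title carries the number of KO3, and this column was placed in P1KO without one.

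Genes were filtered with filterByExpr (15510 left), scaled with TMM and tested with edgeR 4.0.16 in R 4.3.3 (quasi-likelihood F-test, no covariate). P-values were adjusted by Benjamini-Hochberg over all tested genes. The SE is the log2 fold change divided by the square root of F. Differences within a pair of libraries were taken on log2 CPM (prior count 2). The script was tested on simulated counts that gave both groups the same spread, unlike these data. Alternatives were DESeq2 1.42.0, its size factors, library totals, limma-voom (limma 3.58.1) with 1 spread or a spread per group, other filters, a 1.5-fold minimum change, summed CTL libraries and each library left out. Counting intervals are 95% exact binomial.

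Named genes were the 7 class II genes and the nearest profiles (2 of 5 identifiers printed). The symbols of the 7 genes came with their identifiers in the selection rule. The reference table (GRCm38.p6, 49997 genes) holds no Ensembl identifiers, so 19 further gene lists set by symbol, including other class II genes and cell type markers, were not analysed here. The genes and lists were chosen with earlier results of these data known.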

Additional observations from a re-analysis of the deposited data

How the results depend on the processing

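Of the 7 class II genes, 5 were called with all 4 libraries, 4 without a filter on low counts (Cd74 not, edgeR adjusted p of 0.105), 1 against a 1.5-fold minimum change and 1 with the CTL libraries summed. Leaving out 1 library gave 1 to 6. Over all genes 3027 were called, 1633 without a filter, 270 against a 1.5-fold minimum change, 152 with the CTL libraries summed, and 120 to 5391 with 1 library left out. These totals are out of 15510 tested genes, or 26155 without a filter. Where a group had 1 library, its spread was assumed equal to that of the other, and the cause of these differences was not otherwise tested. Across 13 alternatives H2-Ab1 was called in 13, with log2 fold changes from -1.44 to -1.35, H2-Aa, H2-Eb1 and H2-DMb1 in 9 each, Cd74 in 8 and H2-DMa in 0. H2-DMa was negative in all 13, with adjusted p from 0.228 to 1. Ciita was at 0.89 without KO1 and reversed to -0.35 without KO3, and it was called in 1 of 12 alternatives. The alternatives reuse the same 4 libraries, and some held only 1 knockout library, so these counts of calls are not separate support. Group means in CPM moved by less than 1 SD under both other scalings. No paired analysis was possible because no sample title carries the number of column KO3, and the column names of the groups share only the number 1. Counts of 33 to 157 reads per library limit H2-DMa, H2-DMb1 and Ciita. At the minimum of 5 CPM, H2-DMb1 was tested only because of its level in CTL.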
